A study of Mus musculus with 12 samples.

Results

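The late cornified envelope genes described here are 6 Lce1 genes (Lce1a1, Lce1b, Lce1c, Lce1d, Lce1g and Lce1m) and 4 Lce3 genes (Lce3b, Lce3c, Lce3e and Lce3f). They were chosen by name, and all 10 have values at both ages, among 19392 genes with values at postnatal day 36 (P36) and 17750 at 6 months. RNA of dorsal mouse epidermis was sequenced in 12 libraries, 3 per genotype and age. At each age, the libraries labelled DKO (double knockout) come from C57BL/6 mice with floxed alleles of both genes (VDR fl/fl and Med1 fl/fl) and the label K14 Cre+/-, and the CON libraries from C57BL/6 mice with the same floxed alleles and the label K14 Cre-/-. The K14 promoter drives Cre in basal keratinocytes, so other cells of the sample, such as immune cells and fibroblasts, are not targeted directly. Values are FPKM, which scale a gene's fragments by its length and by the library's total. Whether each replicate is an animal of its own is not stated, and the p-values then cover only the variation between these libraries, which may be technical.

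The cornified envelope is a protein shell that transglutaminases cross-link beneath the membrane of a keratinocyte as it dies to form the outer layer of the skin. Late cornified envelope proteins are small precursors of that shell, made near the end of differentiation, and their genes sit side by side in the epidermal differentiation complex. In humans, LCE1 genes are expressed in healthy skin, whereas LCE3 genes are low there and are induced when the barrier is injured and in psoriasis. The vitamin D receptor (Vdr) is a nuclear receptor with known roles in keratinocyte differentiation and the hair cycle, and Med1 is a Mediator subunit that acts as its coactivator.

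Lce1m does not sit among the other Lce1 genes. In the RefSeq annotation of GRCm38.p6, the cluster on chromosome 3 begins with Lce6a, followed by the Lce1 genes from Lce1a1 to Lce1l with Kprp among them, then by Lce3a to Lce3f, Crct1 and, last, Lce1m, for which RefSeq gives the synonym Lce5a. The starts of the coding sequences show how the members differ, and they matter for reading the FPKM values because reads of 50 bases cannot always tell such genes apart. Below are the first 60 coding bases of 3 Lce1 members, from the GENCODE M21 transcripts on GRCm38, with capitals where a base differs from Lce1b at the same position.
Lce1b: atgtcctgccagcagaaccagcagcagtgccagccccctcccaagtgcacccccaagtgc
Lce1g: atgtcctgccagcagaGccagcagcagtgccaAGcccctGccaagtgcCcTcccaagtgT
Lce1m: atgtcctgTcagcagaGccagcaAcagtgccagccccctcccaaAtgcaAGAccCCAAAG
These stretches lie on the minus strand at chr3:92656165-92656224 for Lce1b, chr3:92750940-92750999 for Lce1g and chr3:93018569-93018628 for Lce1m. Lce1g differs from Lce1b at 7 of the 60 bases and Lce1m at 13.

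Over whole coding sequences, aligned end to end and counted against the longer one, the Lce1 members without Lce1m were 80.2% to 91.1% identical to each other. Lce1m was 52.9% to 60.1% identical to those 5, which is about the range between Lce1 and Lce3 members without Lce1m (54.9% to 62.2%). To the Lce3 members, Lce1m was 40.8% to 41.0% identical. Coding sequences have 546 bases in Lce1m, 399 to 441 in the other Lce1 members and 294 in the Lce3 members. Unequal lengths limit an identity counted against the longer sequence. The 4 Lce3 members were 95.2% to 99.0% identical to each other. Of all 50-base stretches of a member's transcript, 0% were shared with another gene for Lce1m, 18.4% to 25.4% for the other Lce1 members, 12.1% for Lce3b, 35.7% for Lce3c, 43.7% for Lce3e and 48.0% for Lce3f. The split of reads between Lce3e and Lce3f, and to a lesser degree among the other Lce1 and Lce3 members, is therefore uncertain, since it rests on how the authors' counting shared such reads.

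**Figure D1:**
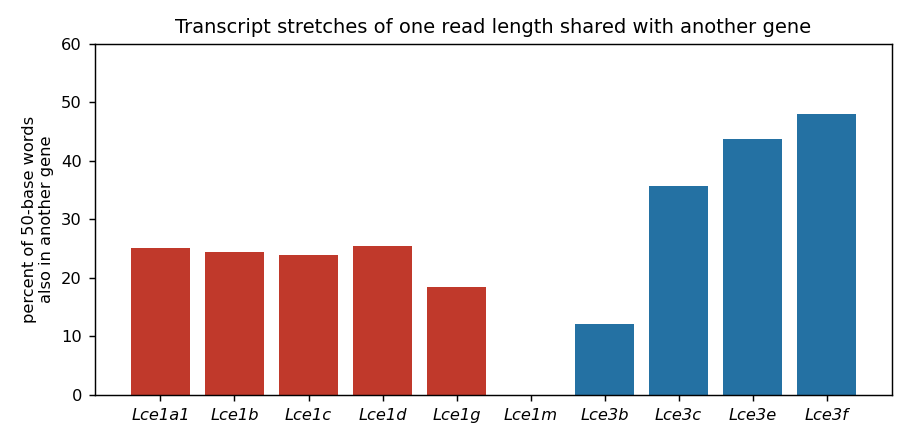
Share (percent) of all 50-base stretches of each member's GENCODE M21 transcript that also occur in the transcript of another gene, with Lce1 members in red and Lce3 members in blue. Lce1m shares none and Lce3f shares the most, 48.0%.

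The 80 bases before the transcript start are shown for 3 Lce1 members that hold a shared word. Those of Lce1m and 2 Lce3 members are given for contrast. The sequences are RefSeq's, on GRCm38.p6. Capitals mark a 10-base word that many promoters of the same family hold.
Lce1b: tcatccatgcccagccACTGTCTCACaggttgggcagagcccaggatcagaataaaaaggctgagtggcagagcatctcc
Lce1d: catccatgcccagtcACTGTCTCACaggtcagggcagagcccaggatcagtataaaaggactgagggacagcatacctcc
Lce1g: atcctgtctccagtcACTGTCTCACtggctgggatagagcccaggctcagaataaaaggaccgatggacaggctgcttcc
Lce1m: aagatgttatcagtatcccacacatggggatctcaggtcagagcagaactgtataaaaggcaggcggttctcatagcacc
Lce3b: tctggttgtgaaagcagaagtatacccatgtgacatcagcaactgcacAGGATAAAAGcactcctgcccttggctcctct
Lce3c: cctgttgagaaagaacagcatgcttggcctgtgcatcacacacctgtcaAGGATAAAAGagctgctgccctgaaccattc
They lie on the minus strand at chr3:92656927-92657006 for Lce1b, chr3:92687211-92687290 for Lce1d, chr3:92752339-92752418 for Lce1g and chr3:93019062-93019141 for Lce1m. On the plus strand they are chr3:92932899-92932978 for Lce3b and chr3:92944406-92944485 for Lce3c. The word ACTGTCTCAC occurred in 9 of 12 Lce1 promoters without Lce1m, in 0 of 6 Lce3 promoters and not in that of Lce1m, against 0.14% of 32851 promoters of the same length (250 bases before to 50 after the start), on both strands. The word AGGATAAAAG occurred in 5 of 6 Lce3 promoters, in 0 of the 12 Lce1 promoters and in 0.0944% of all promoters. Lce1a1, Lce1a2, Lce1b, Lce1d, Lce1e and Lce1g hold the first word and were called higher at P36. Lce1h, Lce1i and Lce1j hold it and were not called then. Lce1c lacks it and was called higher, and Lce1k lacks it and was not called. Whether the word bears on the levels was not tested. Both words were picked by counting over these promoters, and near-identical copies of a gene share such words by descent. Searched on both strands in the same windows, the letters TGANTCA (AP-1), AACCGGTT (GRHL), AGGTCA repeated after 3 free bases (the direct repeat DR3 of the vitamin D receptor) and CCACCC (KLF) were in 0 of the 10 members, against 7.81%, 0.146%, 0.0061% and 31.5% of all promoters. The letters TATAAA were in 3 of 10 members and 13.6% of all promoters. A match is a description of the letters, and a missing match says only that they are not in this window.

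The libraries were checked before the members. Med1 had 9.11 ± 1.11 FPKM in libraries labelled DKO and 13.8 ± 0.504 in CON at P36 (SD, n = 3 each), a log2 fold change of −0.55 (limma adjusted p = 0.0083), and 11.6 ± 0.256 and 14.2 ± 2.21 FPKM at 6 months (adjusted p = 0.13; 0.0388 with library totals that leave keratin and cornified envelope genes out). Vdr was not lower: it had 83.5 ± 6.06 FPKM in libraries labelled DKO and 68.0 ± 4.16 in CON at P36 (adjusted p = 0.0573), and 48.1 ± 5.49 and 40.5 ± 11.6 FPKM at 6 months (adjusted p = 0.302; called higher without CON 6-month replicate 1, adjusted p = 0.0311). An FPKM value covers the whole gene, so a transcript that lost a floxed part can keep its level; each direction here rests on the label. Summed FPKM per library ran from 446617 to 554382; read numbers are unknown. Among the members, CON P36 replicate 1 stood above the other CON libraries in the Lce1 genes, CON P36 replicate 2 below them in the Lce3 genes, and CON 6-month replicate 1 below them in the Lce1 genes, so results are also given without these libraries where that changes them.

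At P36, 5 of the 6 Lce1 members rose, by 1.91 (Lce1c) to 2.30 (Lce1g) on the log2(FPKM + 1) scale, and neither Lce1m nor any Lce3 member passed the test. Of 8 members that reached 1 FPKM in at least 3 libraries, 5 were called higher and 0 lower at an adjusted p below 0.05, where 23.3% of all 12660 genes were called (18% higher, 5.32% lower). At an unadjusted limma p below 0.05, 0 members were lower as well. Leaving out any 1 library, 4 or 5 members were higher. In bulk epidermis, fewer cells of a type and less RNA per cell cannot be told apart.

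Lce1d, a typical Lce1 member of the main cluster, had 101.92, 81.73 and 71.02 FPKM in libraries labelled DKO and 38.37, 10.43 and 11.15 FPKM in CON at P36. The groups did not overlap, and the highest CON library was replicate 1. Its log2 fold change was 2.27 (SE 0.43, limma adjusted p = 0.00752). Lce1a1, at the near end of the Lce1 run, had 206.38, 181.93 and 152.65 FPKM in libraries labelled DKO and 97.07, 25.44 and 33.95 FPKM in CON, again with CON replicate 1 highest. Its log2 fold change was 2.00 (SE 0.42, adjusted p = 0.0119). Lce1g, the member furthest along that run, was the lowest of the 6 Lce1 members, with 22.65, 14.5 and 11.0 FPKM in libraries labelled DKO and 5.18, 0.60 and 2.75 FPKM in CON. It showed the same separation of groups and a log2 fold change of 2.30 (SE 0.46, adjusted p = 0.00944). Lce1b, Lce1c, Lce1a1, Lce1d and Lce1g were each higher in every library labelled DKO than in every CON library, which was so for 30% of all genes.

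Lce1b had 149 ± 35.0 FPKM in libraries labelled DKO and 41.4 ± 32.6 in CON, a log2 fold change of 2.06 (SE 0.45, adjusted p = 0.0134). Lce1c had 96.8 ± 17.1 FPKM in libraries labelled DKO and 30.3 ± 25.2 in CON, a log2 fold change of 1.91 (SE 0.46, adjusted p = 0.019). The Lce1c call was lost without CON P36 replicate 2 (adjusted p = 0.0577), CON P36 replicate 3 (0.0524), DKO P36 replicate 1 (0.0603) or DKO P36 replicate 2 (0.064), with log2 fold changes of 1.60 to 1.91. The calls of Lce1a1, Lce1b, Lce1d and Lce1g held in every such fit.

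Lce1m, the Lce1 gene apart from the others, had 131.59, 58.47 and 95.03 FPKM in libraries labelled DKO and 221.40, 116.43 and 89.12 FPKM in CON at P36. These groups overlapped. Its log2 fold change was −0.55 (SE 0.37, adjusted p = 0.35). As a share of the summed FPKM of the 6 Lce1 members, Lce1m made up 15.1 ± 4.34% in libraries labelled DKO and 52.0 ± 8.92% in CON, and here the groups did not overlap. Lce1m was thus the highest Lce1 member by mean in CON libraries, while Lce1a1, Lce1b and Lce1c were above it by mean in libraries labelled DKO.

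The Lce3 members were low and uneven at P36. Lce3c, the most abundant of them, had 2.78, 4.80 and 4.25 FPKM in libraries labelled DKO and 14.65, 2.45 and 48.39 FPKM in CON. The CON library at 2.45 FPKM, replicate 2, lay below every library labelled DKO, while the other 2 lay far above. Its log2 fold change was −1.51 (SE 0.80, adjusted p = 0.229). Lce3e had 0.34, 1.03 and 0.19 FPKM in libraries labelled DKO and 4.58, 0 and 3.80 FPKM in CON, with a log2 fold change of −1.02 (SE 0.60, adjusted p = 0.277). Without CON P36 replicate 2, both genes were called lower, Lce3c by −2.51 (adjusted p = 0.0106) and Lce3e by −1.81 (adjusted p = 0.00468).

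Lce3b and Lce3f reached 1 FPKM in only 2 libraries at P36 and were not tested. Lce3b had 0.23, 0.13 and 0.11 FPKM in libraries labelled DKO and 2.19, 0.12 and 1.82 FPKM in CON. Lce3f had 0.30, 0.64 and 0.34 FPKM in libraries labelled DKO and 4.86, 0 and 3.70 FPKM in CON. In all 4 Lce3 members, CON replicates 1 and 3 were the highest libraries and CON replicate 2 was near or below those labelled DKO.

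**Figure D2:**
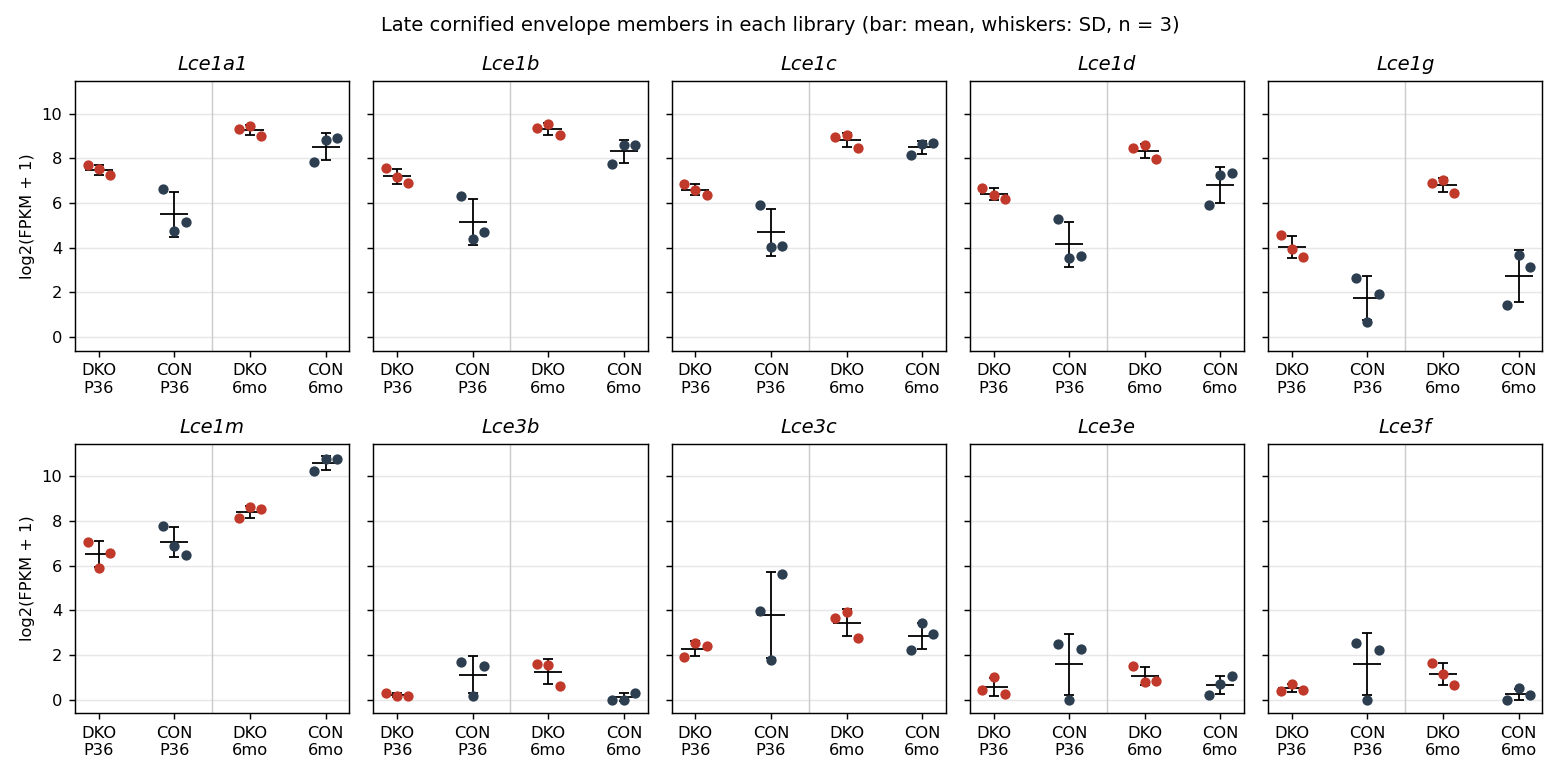
Level of each of the 10 members, as log2(FPKM + 1), in each library of the 4 groups; each point is a library, the bar is the mean and the whiskers are the SD (n = 3). At P36 the points of Lce1a1, Lce1b, Lce1c, Lce1d and Lce1g in libraries labelled DKO lie above all CON points, and at 6 months those of Lce1m lie below all CON points.

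At 6 months, Lce1m fell in libraries labelled DKO, to 346 ± 62.0 FPKM against 1579 ± 319 in CON, while Lce1g rose the most of the members tested, on the log2(FPKM + 1) scale, and Lce1b and Lce1d also rose. Of 7 members tested, 3 were called higher and 1 lower, where 41.3% of all 12594 genes were called (23.2% higher, 18.2% lower). Without DKO 6-month replicate 1, or without replicate 2, only Lce1g was called higher.

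Lce1m had 276.99, 396.16 and 365.99 FPKM in libraries labelled DKO and 1210.38, 1750.65 and 1775.66 FPKM in CON at 6 months. Every library labelled DKO lay below every CON library, which was so for 24% of all genes. Its log2 fold change was −2.18 (SE 0.20, adjusted p = 0.000478), and it stayed between −2.37 and −2.03 in the 14 alternative fits, with adjusted p from 0.000218 to 0.00327.

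Lce1g had 119.08, 131.01 and 85.49 FPKM in libraries labelled DKO and 1.69, 11.65 and 7.73 FPKM in CON at 6 months. Its means stood at a ratio of 15.9, and its log2 fold change was 4.06 (SE 0.53, adjusted p = 0.0015). Lce1g made up 5.16 ± 0.184% of the summed FPKM of the Lce1 members without Lce1m in libraries labelled DKO and 0.526 ± 0.306% in CON, with no overlap between groups. In these libraries Lce1g was thus higher also relative to the other 4 members of that sum. At P36, the same share was 2.98 ± 0.541% in libraries labelled DKO and 1.93 ± 1.13% in CON, and the groups overlapped.

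Lce1b had 666.60, 736.90 and 522.29 FPKM in libraries labelled DKO and 211.48, 386.42 and 386.72 FPKM in CON at 6 months, with groups apart (log2 fold change 1.00, SE 0.26, adjusted p = 0.0185). Lce1d had 347.62, 383.19 and 249.28 FPKM in libraries labelled DKO and 58.27, 149.82 and 161.27 FPKM in CON, likewise with groups apart (1.51, SE 0.38, adjusted p = 0.0182). Without DKO 6-month replicate 1, the adjusted p was 0.059 for Lce1b and 0.0578 for Lce1d, and without replicate 2 it was 0.0729 and 0.073. Lce1b was also not called in the limma fit over all 12 libraries (adjusted p = 0.069). Lce1a1 had 619 ± 94.5 FPKM in libraries labelled DKO and 388 ± 141 in CON; its groups did not overlap and it was not called (0.74, SE 0.29, adjusted p = 0.0814). Lce1c had 492.09, 526.02 and 354.92 FPKM in libraries labelled DKO and 283.11, 400.47 and 412.41 FPKM in CON, with overlap and no call (0.32, SE 0.20, adjusted p = 0.234).

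Among the Lce3 members at 6 months, only Lce3c reached the level for the test. Lce3c had 11.53, 14.15 and 5.77 FPKM in libraries labelled DKO and 3.71, 9.69 and 6.57 FPKM in CON, with overlapping groups (log2 fold change 0.58, SE 0.38, adjusted p = 0.248). Lce3b had 2.01, 1.92 and 0.52 FPKM in libraries labelled DKO, against 0.23 FPKM in 1 CON library and a listed 0 in the other 2. Lce3f had 2.08, 1.21 and 0.59 FPKM in libraries labelled DKO and 0, 0.42 and 0.16 FPKM in CON. Neither gene's groups overlapped (31.8% of all genes lay higher without overlap), and with no filter on low values both were called higher (1.15 and 0.91, adjusted p = 0.0229 and 0.039). In the fit over all 12 libraries, Lce3b was called (adjusted p = 0.0207) and Lce3f was not (adjusted p = 0.175). Lce3e had 1.87, 0.71 and 0.79 FPKM in libraries labelled DKO and 0.16, 0.63 and 1.05 FPKM in CON, with overlap.

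**Figure D3:**
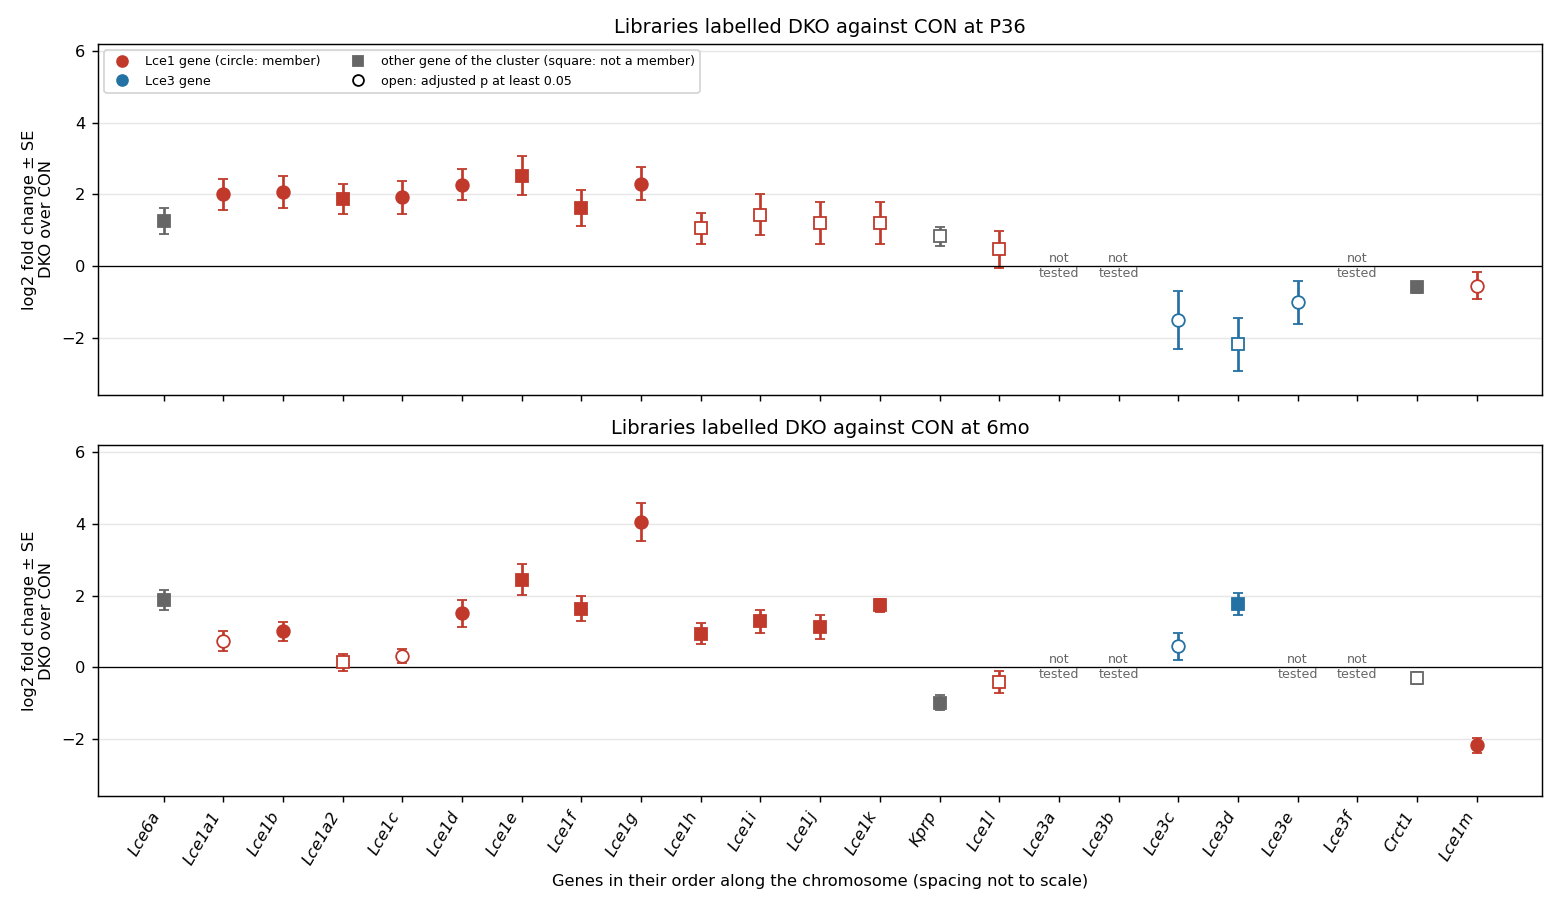
Log2 fold change (libraries labelled DKO over CON, ± SE, on the log2(FPKM + 1) scale) of the late cornified envelope genes in their order along chromosome 3, at P36 above and at 6 months below; filled symbols have an adjusted p below 0.05. Lce1m, at the far right, stands at −0.55 at P36 and at −2.18 at 6 months, and Lce1g at 2.30 and 4.06.

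The make-up of the Lce1 transcripts differed more between genotypes than their sum at 6 months. The 6 Lce1 members summed to 2503 ± 391 FPKM in libraries labelled DKO and 2791 ± 694 in CON, with overlapping groups. Without Lce1m the sum was 2157 ± 387 FPKM in libraries labelled DKO and 1212 ± 375 in CON, with no overlap. Lce1m supplied 14.1 ± 3.32% of the sum in libraries labelled DKO and 57.1 ± 3.21% in CON, shares close to those at P36. At P36, the sum of all 6 was 622 ± 125 FPKM in libraries labelled DKO and 289 ± 183 in CON. These sums and shares are descriptions and carry no p.

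**Figure D4:**
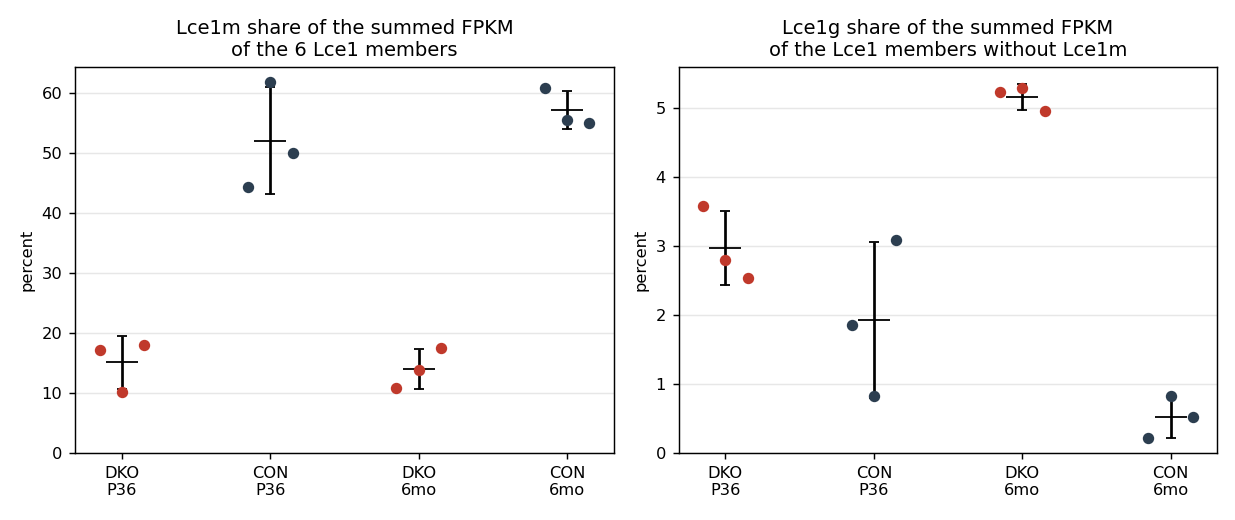
Left, share (percent) of Lce1m in the summed FPKM of the 6 Lce1 members; right, share of Lce1g in the summed FPKM of the Lce1 members without Lce1m; each point is a library, the bar is the mean and the whiskers are the SD (n = 3). The Lce1m share averaged 15.1% and 14.1% in libraries labelled DKO at P36 and 6 months, and 52.0% and 57.1% in CON.

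The distance between the Lce1 and the Lce3 members was larger in libraries labelled DKO at P36, while at 6 months its direction depended on how the levels were summarised. The difference between the mean log2(FPKM + 1) of the Lce1 members and that of the Lce3 members was 5.48 ± 0.439 in libraries labelled DKO and 2.69 ± 1.12 in CON at P36, with no overlap. Their means differed by 2.80, to which the Lce1 mean (libraries labelled DKO minus CON) contributed 1.67 and the Lce3 mean, at −1.13, the rest. The Lce3 means overlapped, at 0.890 ± 0.194 in libraries labelled DKO and 2.02 ± 1.33 in CON. At 6 months the difference was 6.77 ± 0.308 in libraries labelled DKO and 6.62 ± 0.308 in CON, with overlap. There the mean of the Lce1 members was 8.49 ± 0.239 in libraries labelled DKO and 7.58 ± 0.611 in CON, and that of the Lce3 members 1.72 ± 0.452 and 0.962 ± 0.304, each without overlap. Taken as the log2 ratio of summed FPKM, in which Lce1m weighs most in CON, the difference at 6 months was 7.53 ± 0.489 in libraries labelled DKO and 8.62 ± 0.405 in CON, lower in libraries labelled DKO and with no overlap.

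**Figure D5:**
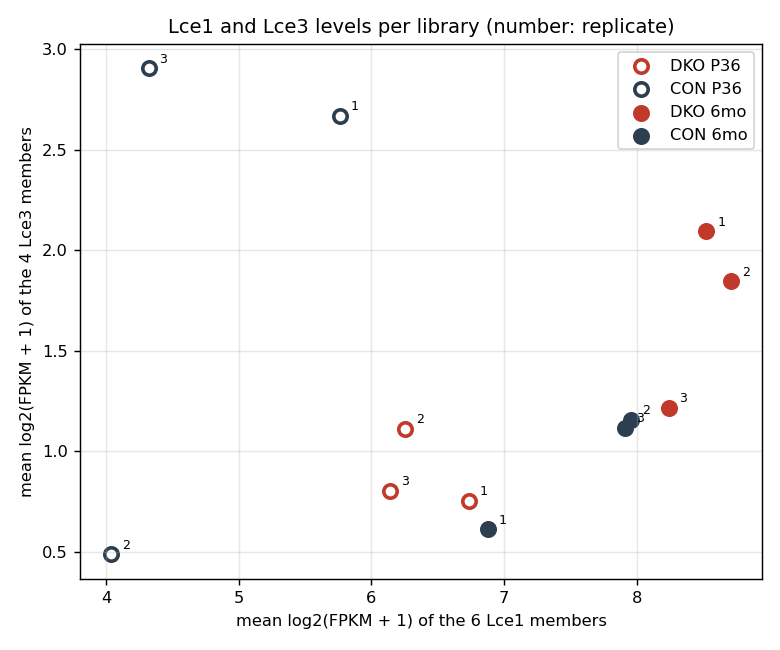
Mean log2(FPKM + 1) of the 4 Lce3 members against that of the 6 Lce1 members in each of the 12 libraries, numbered by replicate (open, P36; filled, 6 months; red, libraries labelled DKO; dark, CON). The CON libraries at P36 spread between 0.488 and 2.90 on the Lce3 axis, and the libraries labelled DKO at P36 between 0.754 and 1.11.

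In the test of whether the genotype difference changed between ages, 3 of 10 members were called, a share no larger than over all genes. In the fit over all 12 libraries, the log2 fold change at 6 months minus that at P36 was −1.63 for Lce1m (SE 0.48, adjusted p = 0.0213), −1.59 for Lce1c (SE 0.57, adjusted p = 0.0493) and 2.05 for Lce3b (SE 0.51, adjusted p = 0.00969). Lce3b and Lce3f each reached 1 FPKM in only 4 of the 12 libraries, CON P36 replicates 1 and 3 and DKO 6-month replicates 1 and 2. Both entered the fit only through the groups in which they were high. Any call of either in this contrast, also with a library left out, is thus a description and supports nothing. Thus 1 member was called higher and 2 lower, where 34.9% of 13280 genes were called (13.8% higher, 21.1% lower). The Lce1c call was lost in 10 of the 12 fits that left out a library (adjusted p up to 0.114), and that of Lce1m without CON P36 replicate 3 (adjusted p = 0.0502) or without DKO 6-month replicate 1 (0.0504). Without CON P36 replicate 2, Lce3c (3.10, adjusted p = 0.00643), Lce3e (2.20, adjusted p = 0.00352), Lce3f (2.79, adjusted p = 0.000515) and Lce1g (2.29, adjusted p = 0.0353) were called higher along with Lce3b. Without CON P36 replicate 1, Lce1a1 (−1.83, adjusted p = 0.00731) and Lce1b (−1.64, adjusted p = 0.00914) were called lower along with Lce1c and Lce1m. Without CON 6-month replicate 1, Lce1a1 was also called lower (−1.62, adjusted p = 0.0482). Calls were also gained by Lce1g without CON 6-month replicate 2 (adjusted p = 0.0487) and by Lce3f without DKO 6-month replicate 3 (adjusted p = 0.0418), both higher. With all libraries, Lce1g had a difference of 1.76 (SE 0.79, adjusted p = 0.105), Lce3c 2.096 (adjusted p = 0.135) and Lce3f 2.00 (adjusted p = 0.0535).

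Between the ages, the Lce1 members were higher at 6 months in both genotypes, except Lce1g in CON, which was not called. The ages stand in separate tables, so these levels are set across tables. In libraries labelled DKO, 7 of 10 members were higher at 6 months than at P36 and 0 lower (also at an unadjusted limma p below 0.05), where 60% of all genes were called (28% higher, 32% lower). The 7 were the 6 Lce1 members, by 1.77 (Lce1a1) to 2.76 (Lce1g) on the log2 scale, and Lce3b, by 1.04 (adjusted p = 0.0254). This Lce3b call was lost without DKO P36 replicate 2 or 3 or DKO 6-month replicate 1 or 2 (adjusted p = 0.0615 to 0.0916). In CON libraries, 5 were higher and 2 lower, where 63.1% of all genes were called (35.3% higher, 27.9% lower). The 5 were the Lce1 members without Lce1g, by 2.68 (Lce1d) to 3.81 (Lce1c). Lce3b, by −1.01 (adjusted p = 0.0268), and Lce3f, by −1.35 (adjusted p = 0.0381), were lower. Lce3f, like Lce3b, entered the fit only through CON libraries at P36 and libraries labelled DKO at 6 months, so these calls are descriptions. Those 2 calls were lost when single libraries were left out: 0 members were lower without CON P36 replicate 1, CON P36 replicate 3, CON 6-month replicate 1 or CON 6-month replicate 2, 1 without CON 6-month replicate 3, and 4 without CON P36 replicate 2. Lce1g had a change of 1.00 with age in CON (SE 0.56, adjusted p = 0.139).

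By level per length, the order of the members differed between groups. In libraries labelled DKO at P36 it ran from Lce1a1 (180 ± 26.9 FPKM) through Lce1b, Lce1c, Lce1m (95.0 ± 36.6), Lce1d (84.9 ± 15.7) and Lce1g to Lce3c (3.94 ± 1.04), Lce3e, Lce3f and Lce3b (0.157 ± 0.0643). The ranges overlapped between Lce1a1 and Lce1b, from Lce1c through Lce1m to Lce1d, and between Lce3e and Lce3f. Lce1b, Lce1d, Lce1g, Lce3c and Lce3f stood apart from the next gene. In CON at P36, Lce1m came first (142 ± 69.8 FPKM), and Lce3c (21.8 ± 23.8) stood between Lce1c and Lce1d with overlapping ranges. In libraries labelled DKO at 6 months, Lce1b (642 ± 109 FPKM) and Lce1a1 came first with overlapping ranges, followed by Lce1c and Lce1m (346 ± 62.0), whose ranges also overlapped. In CON at 6 months, Lce1m (1579 ± 319 FPKM) stood above Lce1a1 (388 ± 141) with no overlap, in 3 of 3 libraries.

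The other genes of the cluster followed the Lce1 members in part. The counts here and below stand against all genes tested. At P36, 18% of these were higher and 5.32% lower, and at 6 months 23.2% and 18.2%. Of 8 other Lce1 genes tested, 3 were called higher and 0 lower at P36, and 6 higher and 0 lower at 6 months, also with 0 lower at an unadjusted limma p below 0.05. The P36 count was 7 without CON P36 replicate 1 and 1 without DKO P36 replicate 2, and the 6-month count was 3 without DKO 6-month replicate 1 or replicate 2. Lce1e, between Lce1d and Lce1g, had 35.3 ± 8.65 FPKM in libraries labelled DKO and 7.07 ± 7.09 in CON at P36 (log2 fold change 2.52, adjusted p = 0.0134), and 167 ± 39.3 and 32.8 ± 17.4 FPKM at 6 months (2.45, adjusted p = 0.00414). Lce1f rose by 1.62 at P36 (adjusted p = 0.0481) and by 1.63 at 6 months (adjusted p = 0.00929); its P36 call was lost in 11 of 14 other fits. Lce1h, Lce1i, Lce1j and Lce1k had 1.05 to 1.44 at P36, where none was called (adjusted p = 0.11 to 0.189), and rose by 0.94 to 1.73 at 6 months. In the limma test of the difference between ages, none of them was called (−0.16 to 0.53, adjusted p = 0.581 to 0.953). Lce1l had −0.41 there (adjusted p = 0.316; −0.76, adjusted p = 0.0289 without CON 6-month replicate 1).

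Lce1a2 rose by 1.87 at P36 (adjusted p = 0.0153; 0.0524 without DKO P36 replicate 2) and had 301 ± 46.3 FPKM in libraries labelled DKO and 278 ± 77.7 in CON at 6 months (0.14, adjusted p = 0.645). Lce3d, an Lce3 gene that is no member, had −2.18 at P36 (adjusted p = 0.0682). It was called lower there without CON P36 replicate 2 (−3.18, adjusted p = 0.000889), with replicate number as a block (0.03) and in the fit over all 12 libraries (0.0334). At 6 months it had 7.08, 5.93 and 3.85 FPKM in libraries labelled DKO and 0.30, 0.83 and 1.87 in CON (1.77, adjusted p = 0.00466). It passed the filter of that fit only through the libraries labelled DKO, in which it was high, so this call is a description. Lce3a reached 1 FPKM in 3 of the 12 libraries and was not tested within an age; its values at P36 were 0, 0.12 and 0.11 FPKM in libraries labelled DKO and 2.51, 0.56 and 2.92 in CON. With no filter on low values it was called lower at P36 (−1.37, adjusted p = 0.034; 0.006 in the fit over all 12 libraries) and had 0.38 at 6 months (adjusted p = 0.119 and 0.301). Lce6a, at the other end of the cluster, rose by 1.25 at P36 (adjusted p = 0.0412) and by 1.88 at 6 months (adjusted p = 0.0022). Its P36 call was lost without CON P36 replicate 2 or 3 or any library labelled DKO. It was also lost with no filter on low values (adjusted p = 0.0763) and with median-ratio scaling (0.0674).

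Crct1, which neighbours Lce1m, had 524 ± 93.8 FPKM in libraries labelled DKO and 786 ± 78.5 in CON at P36, a fall of −0.60 (adjusted p = 0.0264; 0.0867 without CON P36 replicate 1, 0.0733 without CON P36 replicate 2, 0.0886 without DKO P36 replicate 2, 0.109 without DKO P36 replicate 3 and 0.0519 with no filter on low values). At 6 months it had 626 ± 95.1 and 773 ± 117 FPKM (−0.30, adjusted p = 0.167; −0.49, adjusted p = 0.0282 with library totals that leave keratin and cornified envelope genes out). Kprp, which encodes a proline-rich protein of keratinocytes and lies within the Lce1 run, had 53.5 ± 3.80 FPKM in libraries labelled DKO and 31.6 ± 14.3 in CON at P36 (0.83, adjusted p = 0.0505; called without CON P36 replicate 1, 1.16). It fell at 6 months, to 190 ± 45.3 FPKM in libraries labelled DKO against 375 ± 69.6 in CON (−0.99, adjusted p = 0.00961). Of the 12 other late cornified envelope genes tested, 4 were higher and 1 lower at P36 (1 to 9 higher when a library was left out: 9 without CON P36 replicate 1, 1 without DKO P36 replicate 2 and 2 without any other), and 8 higher and 1 lower at 6 months (5 higher without DKO 6-month replicate 1 or 2). Those higher at 6 months include Lce3d, which passed the filter there only through the libraries labelled DKO.

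The other precursors of the envelope and its cross-linking enzymes split at P36. At 6 months more rose than fell, and most of those that rose were small proline-rich (Sprr) genes. Among all genes, 18% rose and 5.32% fell at P36, and 23.2% rose and 18.2% fell at 6 months. Of 23 tested at P36, 5 rose and 6 fell (3 rose without CON P36 replicate 2, DKO P36 replicate 2 or DKO P36 replicate 3), with a median log2 fold change of −0.25 against 0.09 over all genes. Of 25 tested at 6 months, 17 rose and 4 fell, with a median of 1.83 against 0.04. Outside the Sprr genes, Hrnr, Rptn, Ivl, Tgm3 and Casp14 rose at 6 months, and the 4 that fell were Lor (loricrin), Flg2, Cdsn and Ppl. Sprr2a1, a small proline-rich envelope precursor, rose by 4.98 at P36 (adjusted p = 0.000474) and 4.11 at 6 months (adjusted p = 0.00216). Sprr4, another such precursor, fell by 2.16 at P36 (adjusted p = 0.00662) and rose by 4.28 at 6 months (adjusted p = 0.000219). Flg2, which encodes filaggrin-2, had −0.74 at P36 (adjusted p = 0.258) and fell by 2.05 at 6 months (adjusted p = 0.000194). Casp14, the caspase of cornification, rose by 1.44 and 2.50 (adjusted p = 0.0215 and 0.00026).

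Keratins of the suprabasal layers gave 2 higher and 0 lower of 6 tested at P36 (3 and 1 at an unadjusted limma p below 0.05), and 1 higher and 4 lower of 5 at 6 months. Shares over all genes were 18% higher and 5.32% lower at P36, and 23.2% and 18.2% at 6 months. Krt1 rose by 3.46 at P36 (adjusted p = 0.000131) and by 0.98 at 6 months (adjusted p = 0.0322), the second call being lost without CON 6-month replicate 1 or 3 or DKO 6-month replicate 1 or 2. Its partner Krt10 rose by 1.60 at P36 (adjusted p = 0.00176) and fell by 1.11 at 6 months (adjusted p = 0.00617). Krt77 and Krt80 fell at 6 months by 2.55 and 1.57 (adjusted p = 0.000212 and 0.000331). Without CON P36 replicate 3, 2 keratins were lower at P36.

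Of 16 transcription factors of keratinocyte differentiation, 3 rose and 4 fell at P36 (2 and 8 with median-ratio scaling), and 0 rose and 4 fell at 6 months (2 fell without DKO 6-month replicate 2, 2 rose without CON 6-month replicate 1, and 2 rose at an unadjusted limma p below 0.05). For comparison, 18% of all genes rose and 5.32% fell at P36, and 23.2% rose and 18.2% fell at 6 months. Gata3 fell by 0.81 at P36 (adjusted p = 0.00189) and 1.73 at 6 months (adjusted p = 0.0112). Maf, which acts in late differentiation, fell by 0.90 at P36 (adjusted p = 0.00402) and had 0.03 at 6 months (adjusted p = 0.918). Cebpa and Nfe2l2, the gene of NRF2, rose at P36 by 0.67 and 0.65 (adjusted p = 0.00446 and 0.0029) and had −0.07 and 0.25 at 6 months (adjusted p = 0.726 and 0.0976). Of the genes of wound and barrier repair, 6 of 13 rose and 0 fell at P36, and 12 of 14 rose and 0 fell at 6 months (1 fell without DKO 6-month replicate 3; at an unadjusted limma p below 0.05, 0 fell at P36 and 1 at 6 months). The protease inhibitor genes Stfa1 and Stfa3 rose by 4.80 and 5.71 at P36 (adjusted p = 0.000733 and 0.000168) and by 5.35 and 6.49 at 6 months (adjusted p = 0.000112 and 0.000242). Slpi, another protease inhibitor, had 1.94 at P36 (adjusted p = 0.125) and rose by 2.90 at 6 months (adjusted p = 8.77e-05), and the matrix protease gene Mmp9 rose by 2.96 at P36 (adjusted p = 0.000168) and had −0.77 at 6 months (adjusted p = 0.0595).

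Other cell types differed between the same libraries, most at P36. There the 7 measured hair shaft and inner root sheath markers all fell (4 without DKO P36 replicate 2), with sums of 9906 to 13431 FPKM in libraries labelled DKO and 22093 to 28140 in CON. Of 7 skeletal muscle markers 6 rose (sums of 109 to 492 FPKM against 13.0 to 24.7), of 7 sebaceous gland markers 6 rose (645 to 844 against 365 to 380), and of 6 immune cell markers 5 rose (394 to 493 against 106 to 157; 3 rose without DKO P36 replicate 2 or 3). Basal keratinocyte markers summed to 4946 to 6524 FPKM in libraries labelled DKO and 3080 to 5061 in CON at P36, and 2 of 6 fibroblast markers rose (978 to 1366 against 559 to 1144). At 6 months, 5 of 6 basal markers fell (3762 to 4560 FPKM against 6044 to 7656), 3 of 7 sebaceous markers rose (1206 to 1477 against 467 to 831), and the hair sums had medians of 2.53 FPKM in libraries labelled DKO and 3.28 in CON. Muscle sums were 9.21 to 124 FPKM in libraries labelled DKO and 9.01 to 52.7 in CON, those of fibroblasts 296 to 923 and 461 to 893, and those of immune cells 413 to 742 and 699 to 966, with 2 immune markers higher and 1 lower (0 higher without DKO 6-month replicate 2 or 3 or any CON library). These marker counts stand against 18% of all genes higher and 5.32% lower at P36, and 23.2% and 18.2% at 6 months. No marker was at 0 in all 3 libraries of a group. The part of these cell types in the late cornified envelope results was not tested.

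Outside the cluster, the genes whose centred log2(FPKM + 1) profile over the 12 libraries lay closest to the mean profile of the Lce1 members were Asah2 (neutral ceramidase), Sdcbp2, the cytokine gene Il18, Hrnr (hornerin, an envelope precursor) and Kctd4. Their root mean square differences from it were 0.308 to 0.441, against a size of 1.496 for the profile itself. For the Lce3 members the closest were Cnfn (cornifelin, an envelope protein), Cfap74, Psg23, Gm20594 and Dnase1l2 (a DNase of keratinocytes), at 0.479 to 0.585 against a profile size of 0.766, so the likeness is looser. Asah2 had 8.14, 7.06 and 8.61 FPKM in libraries labelled DKO and 4.74, 2.07 and 2.53 in CON at P36. Cnfn had 254.13, 291.94 and 266.52 FPKM in libraries labelled DKO and 638.10, 422.71 and 611.06 in CON at P36. CON replicate 2 was its lowest CON library, as in the Lce3 members, but Cnfn was picked for this likeness. Unlike in Lce3c, that library still lay above every library labelled DKO.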

How the data were processed

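Per the labels' protocols, epidermis was peeled from heated dorsal skin, RNase H took out ribosomal RNA, and a BGISEQ-500 read single ends of 50 bases. Per age, the authors deposited FPKM per gene and library, with their own log2 ratio, p-value and q-value per gene; the sources used here do not give that test. HISAT2 2.1.0 and RSEM 1.2.8 were used, per the submitters' processing notes, where the builds listed are human (GRCh38, hg38) although the samples are mouse; coordinates were therefore not taken from the files. The age of a table comes from its name. Entrez identifiers were matched to RefSeq symbols (GRCm38.p6): 19343 of 19392 at P36 and 17712 of 17750 at 6 months.

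A count test was planned if counts were given. As the values are FPKM, limma 3.58.1 (R 4.3.3) with a variance trend was fitted to log2(FPKM + 1), which understates the change of low genes, for genes that reached 1 FPKM in 3 or more of its libraries. Benjamini-Hochberg adjustment ran over all genes, with calls below 0.05. Each age was fitted alone; the contrasts between ages used all 12 libraries. Depth is unknown, so no counting interval is given. The fits were tested on simulated data. The median log2 fold change of all genes was 0.09 at P36 and 0.04 at 6 months. At P36, 77.1% of called genes were higher, against 58.9% with median-ratio scaling, which moved that median to −0.03. At 6 months the share was 56.0%, against 36.7% with library totals that leave keratin and cornified envelope genes out, which moved it to −0.12. For the difference between ages it was 39.5%, against 54.6% and 28.5% under these scalings.

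The members and gene lists were chosen with earlier results of these data known. Named genes are the members, the other late cornified envelope genes, Vdr and Med1, up to 4 genes with the smallest p of each other list, and the 5 closest profiles per family. Promoters were read from RefSeq and coding sequences from GENCODE M21, with Python 3.11.15, pandas 2.3.3 and Biopython 1.88; figures were drawn with matplotlib 3.10.9. The coding starts of the Lce3 members are not reported here.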

Additional observations from a re-analysis of the deposited data

Results flagged for a closer look

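For 7 late cornified envelope genes, the genotype difference at 6 months differed from that at P36 by the test of the difference itself. They were found among 10 members and 13 other late cornified envelope genes tested, a share no larger than the 34.9% of all genes called. Values are log2 fold changes at 6 months minus those at P36, with limma's adjusted p. Members among them were Lce1c (−1.59, adjusted p = 0.0493), Lce1m (−1.63, adjusted p = 0.0213) and Lce3b (2.05, adjusted p = 0.00969). The others were Lce1a2 (−1.73, adjusted p = 0.0304), Kprp (−1.81, adjusted p = 0.0036), Lce3a (1.75, adjusted p = 0.0072) and Lce3d (3.95, adjusted p = 0.00734). Lce3b and Lce3a entered this fit only through the libraries in which they were high, so their calls support nothing. The calls of Lce1c and Lce1a2 were lost in 10 and 8 of the 12 fits that left out a library. Groups of 3 libraries are too small for a test of single outlying libraries.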

How the results depend on the processing

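No called member changed direction in the alternatives run. Leaving out 1 library at a time gave 4 to 5 members higher and 0 to 2 lower at P36, 1 to 3 higher and 1 lower at 6 months, 1 to 5 higher and 0 to 4 lower for the difference between ages, 6 to 7 higher and 0 lower with age in DKO, and 5 to 6 higher and 0 to 4 lower with age in CON. The Lce1 minus Lce3 difference then ranged from 2.16 to 3.23 at P36 and from −0.03 to 0.32 at 6 months; at 6 months it was −0.84 with a pseudocount of 0.1 and −1.09 with log2 of summed FPKM. Without a filter on low values, 5 members were higher at 6 months, because Lce3b and Lce3f then entered the fit. For the difference between ages, 1 member was lower with a pseudocount of 0.1, no filter, median-ratio scaling or no variance trend, 0 were higher with a filter at 5 FPKM and 2 with median-ratio scaling. Where members were higher for this difference, Lce3b was among them, as was Lce3f in some fits, and those calls support nothing. With age in CON, 1 was lower with a pseudocount of 0.1 or no filter and 0 with a filter at 5 FPKM. The 5 FPKM filter removes low genes; the other causes were not tested. Lce1a2, not called at 6 months (0.14), had −0.0414 with library totals that leave keratin and cornified envelope genes out, and −0.11 to 0.28 when 1 library was left out (−0.11 without CON 6-month replicate 1).

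Whether the replicate numbers pair the libraries cannot be decided from correlations within groups of 3. Same-numbered deviations correlated at 0.13, −0.06 and −0.12 at P36 and at −0.06, 0.03 and 0.18 at 6 months. Some libraries correlated best with their own number and others did not. With the replicate block, 5 members were higher and 0 lower at P36, 3 and 1 at 6 months, 1 and 2 for the difference, 7 and 0 with age in DKO and 5 and 2 in CON, the same counts as without it. Among the other Lce1 genes at P36 it gave 7 higher in place of 3.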

Other observations

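In the authors' deposited table, the log2 ratios of DKO over CON have the direction of the group means for each of the 10 members at both ages, with q-values smaller than any adjusted p given above for the same member and age. For the Lce3 members the ratios in the authors' deposited table are larger in size than those on the log2(FPKM + 1) scale: at P36 it has −2.43 for Lce3e, against −1.02, and at 6 months 4.24 for Lce3b, against 1.15 with no filter. For Lce1m at P36 the authors' deposited table has −0.58 with a q-value of 1.05e-95, where the 3 libraries of each group overlapped. For Lce3c at P36 the authors' deposited table has −2.47 with a q-value of 5.67e-86, where the library with the lowest value was a CON library.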
